A study of Homo sapiens with 12 samples.

Results

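SOCS1, SOCS2, SOCS3, CISH, PIM1 and PIM3 are the 6 genes described here, matched by symbol in a table of 60623 genes. They were chosen by name, as genes that cytokine receptors of the oncostatin M kind are known to switch on through STAT factors, and 6 of 6 passed the filter on low values. Messenger RNA had been sequenced from HMEC-1 cells, a line of human dermal microvascular endothelium made immortal with a viral antigen, in 4 groups of 3 libraries taken after 48 h. The PF9363 group received oncostatin M together with PF9363 at 30 µg/mL, named in the labels as an inhibitor of KAT6A and KAT6B. The CBP300 group received oncostatin M together with CBP300 at 10 µg/mL, named there as an inhibitor of EP300. The OSM group received oncostatin M alone, and the CT group received neither the cytokine nor an inhibitor. The dose of oncostatin M is 10 ng/mL in the treatment protocol but 10 µg/mL in the sample descriptions, a conflict that nothing in the data resolves. A vehicle is not named, and neither inhibitor was given on its own, so the effect of an inhibitor on the resting level of these genes was not measured. The labels do not say whether the 3 libraries of a group came from separate cultures, so p-values measure the spread between libraries, which may be technical.

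Oncostatin M binds a receptor built from gp130 and the oncostatin M or leukaemia inhibitory factor receptor chain, which activates JAK kinases, and these phosphorylate STAT3 and other STAT factors. Genes of the SOCS family are transcribed in response and close a loop: SOCS1 and SOCS3 proteins block JAK kinases, SOCS3 by docking on gp130, while CISH and SOCS2 bind receptors that signal through STAT5, and the SOCS box at the end of each protein recruits a ubiquitin ligase. PIM1 and PIM3 are serine/threonine kinases without a known regulatory phosphorylation switch, so their activity follows how much protein is made, and they favour survival, translation and cell cycle entry. EP300 and the KAT6 enzymes acetylate histones at active genes.

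Levels were read in TPM, a share of the transcripts in a library that is scaled for gene length, so they can be set against each other between genes. In OSM cells the order was SOCS3 with a mean of 382 TPM, PIM3 with 155 TPM, PIM1 with 44.4 TPM, SOCS1 with 3.94 TPM, SOCS2 with 1.25 TPM and CISH with 1.13 TPM. In CT cells PIM3 stood first at 83.5 TPM and PIM1 next at 21.1 TPM, and SOCS3 came after them at 8.84 TPM. SOCS2, SOCS1 and CISH followed in CT cells at 1.11, 1.04 and 0.514 TPM. The values of SOCS2 overlapped those of SOCS1 and of CISH in CT libraries, and those of CISH in OSM libraries, so these pairs cannot be ordered there. SOCS3 was thus the highest of the 6 genes in every library that had received oncostatin M and in none of the CT libraries.

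**Figure D1:**
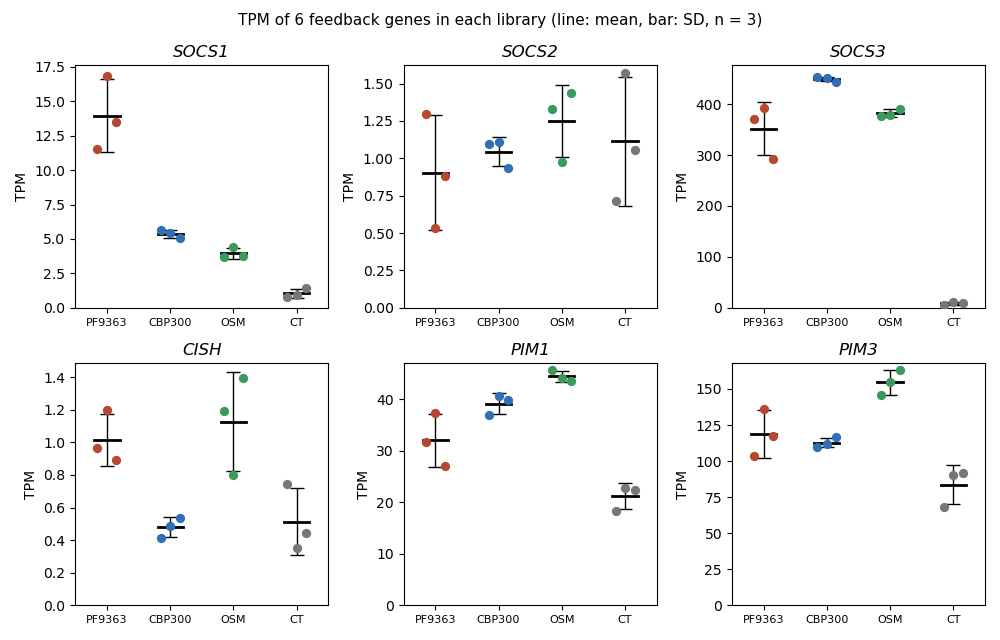
Level in TPM (linear axis from 0) of each of the 6 genes in each library of the PF9363, CBP300, OSM and CT groups; points are libraries, the line is the mean and the bar the SD of 3 libraries. SOCS3 sits between 293 and 453 TPM in all 9 libraries with oncostatin M and between 5.47 and 11.5 TPM in CT, SOCS1 is highest in PF9363 libraries, and CISH is low in both CBP300 and CT libraries.

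Depth, recovered from the table as whole reads, ran between 13418045 and 73297452 reads per library, and the deepest library was CBP300 replicate 2. Mitochondrially encoded genes took 15.592% to 18.125% of TPM in PF9363, 17.718% to 18.125% in CBP300, 17.308% to 17.981% in OSM and 12.506% to 15.422% in CT libraries. Endothelial markers were present, with 10 of 10 at 1 TPM or more in every PF9363, OSM and CT library and 8 of 10 in every CBP300 library. Their summed level was 1159 to 1345 TPM in PF9363, 670.5 to 707.4 TPM in CBP300, 1540 to 1602 TPM in OSM and 1181 to 1285 TPM in CT libraries. For 8 mural and fibroblast markers the sum was 58.69 to 77.25, 13.31 to 14.39, 46.14 to 50.04 and 86.37 to 108.2 TPM in the same order, and for 6 epithelial markers it was at most 7.092 TPM. The part of these differences in the results was not tested. The groups also differed in how expression followed GC content, with slopes of -0.348 to -0.288 log2 units per 10 points of GC in CBP300 libraries and 0.222 to 0.598 in CT libraries. The median log2 change of all 16848 tested genes was 0.31 between OSM and CT, -0.31 between PF9363 and OSM, and 0.11 between CBP300 and OSM, and changes are also given relative to these shifts.

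SOCS3, SOCS1, PIM1, PIM3 and CISH were higher in OSM than in CT cells, the values of OSM and CT libraries did not overlap for any of the 5, and SOCS2 did not pass the test. The calls of SOCS3, SOCS1, PIM1 and PIM3 held under every alternative processing run, whereas that of CISH ended in 9 of 18. CISH is near the filter on low values and passed it only through PF9363 and OSM libraries, the groups where it is highest. Each change is a difference of group means of log2(TPM + 1) from a limma fit over all tested genes, and a change passed when its Benjamini-Hochberg adjusted p was under 0.05. The count has to be read against a wide background: 57.2% of all tested genes passed in OSM against CT, 42.1% as higher and 15.2% as lower, and 67.4% did not overlap. The split between higher and lower depended on scaling, with 7087 higher and 2553 lower genes as deposited and 5031 higher and 4694 lower after median-of-ratios scaling. The median change of the 6 genes was 0.97, beside 0.31 for all tested genes. In bulk RNA, a gene expressed in more of the cells and a gene expressed more strongly per cell cannot be told apart.

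In PF9363 against OSM, SOCS1 was higher and PIM1 and PIM3 lower, so that 3 of the 6 genes passed. After median-of-ratios scaling SOCS1 alone passed. Relative to the median of all tested genes, PIM1 changed by -0.16 and PIM3 by -0.07. Their lower values thus lie close to the shift of all genes. Over all tested genes 46.9% passed in this comparison, 11.3% as higher and 35.6% as lower, and 59.9% did not overlap. That split was 1901 higher and 5993 lower genes as deposited and 3711 higher and 3773 lower after median-of-ratios scaling. In CBP300 against OSM, CISH and PIM3 were lower, of which 0 or 1 passed when any 1 CBP300 or OSM library was left out. With the GC and length trend removed, PIM3 changed by -0.10 and did not pass. CISH passed the filter only through PF9363 and OSM libraries, so its call is not independent of the filter. As higher, 0 of the 6 genes passed with limma, while SOCS1 was higher at an unadjusted p of 0.0405. The background was 27.1% of tested genes, 13.8% higher and 13.3% lower, with 66.5% not overlapping, and 5 of the 6 genes did not overlap between CBP300 and OSM. Both inhibitor comparisons and the comparison of OSM with CT use the same OSM libraries, so their changes are not independent and are set side by side as each comparison's own values.

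Between PF9363 and CT 5 of the 6 genes were higher and 0 lower, where 56.3% of tested genes passed, 27.9% as higher and 28.4% as lower, and 53.4% did not overlap. Between CBP300 and CT 4 were higher and 0 lower, where 70.8% passed, 48.1% as higher and 22.7% as lower, and 76% did not overlap. After median-of-ratios scaling the split of all genes between CBP300 and CT was 6045 higher and 5943 lower. Between the 2 inhibitors, PF9363 over CBP300, SOCS1 and CISH were higher, 0 of 6 were lower, and the background was 59.6% passing, 14.5% as higher, 45.1% as lower and 71.1% without overlap. That background became 4398 higher and 4706 lower genes after median-of-ratios scaling. CISH is counted among the higher genes in PF9363 over CT and over CBP300. It passed the filter only through PF9363 and OSM libraries, so those calls are not independent of the filter.

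**Figure D2:**
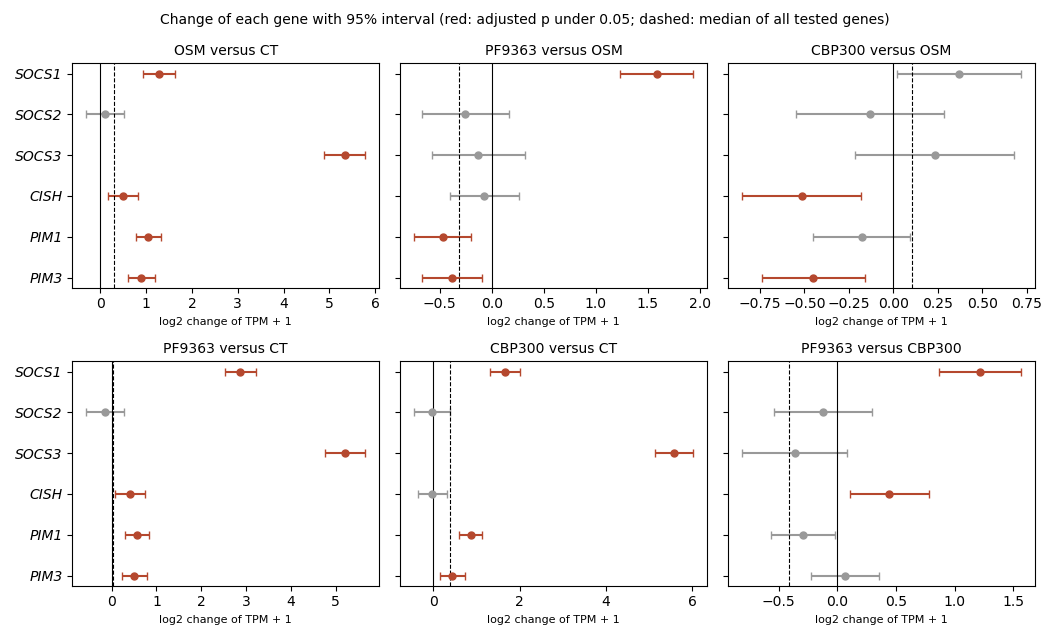
Log2 change of TPM + 1 of each gene in the 6 comparisons (the first group named minus the second), with its 95% interval; red marks an adjusted p under 0.05 and the dashed line is the median change of all tested genes. SOCS3 changed by 5.34 in OSM versus CT and by -0.13 in PF9363 versus OSM, and SOCS1 is the gene farthest above the dashed line in PF9363 versus OSM.

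SOCS3 (ENSG00000184557, chromosome 17, 78356778 to 78360077, minus strand, GRCh38) encodes the inhibitor that docks on gp130. Its level was 370.3, 392 and 293 TPM in PF9363 libraries, 453, 451 and 445 TPM in CBP300 libraries, 376, 379 and 391 TPM in OSM libraries, and 5.47, 11.5 and 9.57 TPM in CT libraries. The 9 libraries with oncostatin M lay far above the CT libraries, CBP300 libraries lay above all OSM libraries, and PF9363 libraries spread around the OSM values on both sides. The mean in OSM cells was 43.2 times that in CT cells, a log2 change of 5.34 (SE 0.20, adjusted p = 2.13e-07) that stands 5.03 above the median of all genes. Between PF9363 and OSM the change was -0.13 (95% interval -0.58 to 0.32, adjusted p = 0.628), which leaves room for a small change in either direction. Between CBP300 and OSM it was 0.23 (95% interval -0.21 to 0.68, adjusted p = 0.396), although the groups did not overlap.

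Those SOCS3 levels rest on 4222 to 5255 reads per PF9363 library, 4416 to 23863 per CBP300 library, 4946 to 6074 per OSM library and 94 to 176 per CT library. The SD was 51.9 TPM in PF9363, 4.48 TPM in CBP300, 7.84 TPM in OSM and 3.08 TPM in CT cells. PF9363 libraries therefore varied most in TPM, with replicate 3 the low one. A fit of only the CBP300 and OSM libraries, whose own spread is small, gave an adjusted p of 0.000566 for SOCS3 at the same change.

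SOCS1 (ENSG00000185338, chromosome 16, 11254405 to 11256200, minus strand, GRCh38) encodes an inhibitor of JAK kinases best known as a brake on interferon signalling, and of the 6 genes it had the largest change between PF9363 and OSM. Its promoter in RefSeq (GRCh38.p14) holds 1 match to an interferon-type element (GAAA, any 2 bases, GAAA) at positions -113 to -104 relative to the start. The stretch chr16:11256275-11256374 (minus strand), positions -170 to -71, is shown because this search was added after the SOCS1 values had been seen, with the match in capitals.
SOCS1 promoter: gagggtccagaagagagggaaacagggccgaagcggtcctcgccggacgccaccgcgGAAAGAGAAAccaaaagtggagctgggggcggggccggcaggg
The element was searched on both strands, and 1255 of 35116 promoters of the same length hold it (3.57%). A match describes these letters, and whether it is a binding site was not tested.

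SOCS1 had 11.5, 16.8 and 13.5 TPM in PF9363 libraries, 5.62, 5.43 and 5.06 TPM in CBP300 libraries, 3.68, 4.43 and 3.73 TPM in OSM libraries, and 0.797, 0.894 and 1.44 TPM in CT libraries. No value of one group overlapped those of another, and the order PF9363, CBP300, OSM, CT held throughout. The mean was 14.0 ± 2.66 TPM in PF9363, 5.37 ± 0.288 TPM in CBP300, 3.94 ± 0.417 TPM in OSM and 1.04 ± 0.347 TPM in CT cells (SD, n = 3 each). SOCS1 rose with oncostatin M by a log2 change of 1.28 (SE 0.16, adjusted p = 0.000363), and rose again in PF9363 over OSM by 1.59 (SE 0.16, adjusted p = 1.85e-05). Its mean in PF9363 cells was 3.54 times that in OSM cells and 13.4 times that in CT cells. Relative to the median of all genes the rise in PF9363 over OSM was 1.90.

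The step to CBP300 was smaller. SOCS1 changed by 0.37 between CBP300 and OSM (95% interval 0.02 to 0.72, adjusted p = 0.103) and did not pass, and it was 1.22 higher in PF9363 than in CBP300 cells (SE 0.16, adjusted p = 9.13e-05). With the trend on GC content and length removed, the change between CBP300 and OSM was 0.83 (adjusted p = 0.00489). SOCS1 transcripts are rich in GC (69.1% in the longest annotated transcript). Its reads numbered 101 to 148 in PF9363, 33 to 189 in CBP300, 31 to 39 in OSM and 9 to 17 in CT libraries.

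Among 10 leukocyte markers, CD14, a co-receptor for bacterial lipopolysaccharide, was the 1 that passed the filter, and it moved as SOCS1 did. CD14 averaged 50.3 TPM in PF9363, 16.7 TPM in CBP300, 14.7 TPM in OSM and 3.67 TPM in CT cells, and was higher in PF9363 than in OSM by 1.70 (adjusted p = 5.97e-06). The 10 markers summed to 46.04 to 61.84 TPM in PF9363, 15.59 to 17.63 TPM in CBP300, 13.21 to 16.64 TPM in OSM and 3.395 to 4.649 TPM in CT libraries. The defining leukocyte gene PTPRC (CD45) averaged 0.0069 TPM in PF9363, 0.00188 TPM in CBP300, 0.0284 TPM in OSM and 0.0425 TPM in CT cells, close to 0 in each group. CD3E averaged 0.428 TPM in PF9363 libraries and was at 0 in the libraries of the other 3 groups. LCP2 averaged 0.503 TPM in PF9363, 0 in CBP300, 0.0393 TPM in OSM and 0 in CT cells, and NKG7 averaged 0.868, 0.0374, 0.0782 and 0.120 TPM in the same order of groups. ITGAM averaged 0.196, 0.00605, 0 and 0.0298 TPM and CSF1R 0.166, 0.00668, 0 and 0.0432 TPM in that order. These 5 markers were under the filter but highest in PF9363, and the part of the leukocyte markers in the SOCS1 values was not tested.

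CISH (ENSG00000114737, chromosome 3, 50606490 to 50611831, minus strand, GRCh38) encodes the SOCS protein known as a classic target of STAT5. Promoters were found in the reference table for 5 of the 6 members. Among the windows searched, CISH alone matched TTCNNNGAA, the general STAT element, searched on both strands. The SOCS3 windows, 78360876 to 78361175 and 78359618 to 78359917, leave out the bases just before its gene start at 78360077. The PIM3 window, 49960522 to 49960821, begins inside the gene, which starts at 49960513. Whether SOCS3 and PIM3 carry the element just before those starts was not tested. CISH held 4 matches, of which the first and the last also fit the stricter TTCCNGGAA. The stretch chr3:50611865-50612024 (minus strand, RefSeq, GRCh38.p14) covers positions -250 to -91 and is shown because it carries all 4, in capitals.
CISH promoter: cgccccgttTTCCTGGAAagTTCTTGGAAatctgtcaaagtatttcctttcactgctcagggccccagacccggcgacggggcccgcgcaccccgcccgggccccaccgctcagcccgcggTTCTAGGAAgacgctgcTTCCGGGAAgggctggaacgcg
The matches lie at positions -241 to -233, -230 to -222, -129 to -121 and -112 to -104 relative to the start. Among 35116 annotated promoters, 2689 hold at least 1 match (7.66%) and 7 hold 4 or more (0.0199%), while TTCCNGGAA is in 403 (1.15%) and at least 2 times in 4 (0.0114%).

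**Figure D3:**
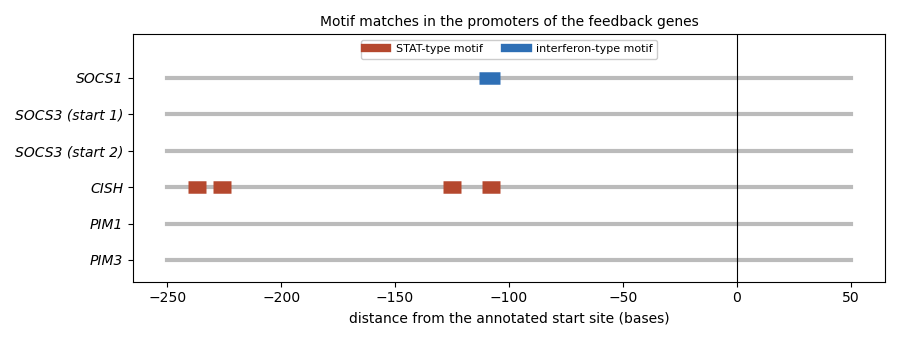
Positions of motif matches in the promoters of the feedback genes, in bases from the annotated start (250 before to 50 after); red marks TTCNNNGAA and blue marks the interferon-type element. CISH carries 4 red marks and SOCS1 carries 1 blue mark. The windows at the 2 annotated starts of SOCS3 and those of PIM1 and PIM3 carry neither. For SOCS3 and PIM3 the windows leave out the bases just before the gene start, and SOCS2 has no entry in the table.

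CISH was low in all groups. It had 0.964, 1.20 and 0.891 TPM in PF9363 libraries, 0.416, 0.485 and 0.538 TPM in CBP300 libraries, 1.19, 0.797 and 1.40 TPM in OSM libraries, and 0.746, 0.349 and 0.447 TPM in CT libraries. OSM and PF9363 libraries thus lay above CBP300 and CT libraries, which overlapped each other, and the smallest gap was between 0.797 TPM in OSM replicate 2 and 0.746 TPM in CT replicate 1. CISH passed the filter of 1 TPM with exactly 3 libraries, of the PF9363 and OSM groups. Its entry into the tests thus depended on the groups where it is high. Its calls between these groups and CBP300 or CT are therefore not independent of the filter. These values come from 24 to 30 reads in PF9363, 10 to 48 in CBP300, 20 to 36 in OSM and 10 to 24 in CT libraries, and at such counts the sampling error alone is large.

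The log2 change of CISH was 0.49 in OSM over CT (SE 0.15, adjusted p = 0.0184), and its mean was 2.20 times that in CT cells. CISH fell in CBP300 relative to OSM by 0.52 (SE 0.15, adjusted p = 0.0293), to a mean 0.425 times that in OSM cells. Between CBP300 and CT it differed by -0.03 (95% interval -0.36 to 0.31, adjusted p = 0.889), and between PF9363 and OSM by -0.07 (95% interval -0.40 to 0.26, adjusted p = 0.732). It was higher in PF9363 than in CBP300 by 0.45 (SE 0.15, adjusted p = 0.0261) and than in CT by 0.42 (SE 0.15, adjusted p = 0.0354), the last a call that ended in 10 of 18 alternatives. The call in OSM over CT ended in 9 of 18 alternatives and that in CBP300 against OSM in 9 of 18, with adjusted p up to 0.633 for OSM over CT and 0.111 for CBP300 against OSM. The change in OSM over CT was 0.31 (adjusted p = 0.152) after median-of-ratios scaling, 0.15 (adjusted p = 0.513) after quantile scaling and 0.12 (adjusted p = 0.628) with the GC and length trend removed, and as deposited it is 0.18 relative to the median of all genes. Leaving out OSM replicate 1 or 3 or CT replicate 2 or 3 ended the OSM over CT call, with changes of 0.40 to 0.46. Leaving out any 1 CBP300 library or OSM replicate 1 or 3 ended the CBP300 against OSM call, with changes of -0.54 to -0.42. The call in PF9363 over CBP300 ended without PF9363 replicate 2 or CBP300 replicate 1 or 2, with changes of 0.38 to 0.45. Of the 5112 exon bases of CISH, 218 overlap those of MAPKAPK3 on the opposite strand, and the sources used here do not say whether counting used strand.

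SOCS2 (ENSG00000120833, chromosome 12, 93569814 to 93583487, plus strand, GRCh38), known as a regulator of growth hormone signalling, had 1.299, 0.535 and 0.879 TPM in PF9363 libraries, 1.09, 1.11 and 0.935 TPM in CBP300 libraries, 1.33, 0.975 and 1.44 TPM in OSM libraries, and 0.712, 1.57 and 1.06 TPM in CT libraries. Every pair of groups overlapped, and the highest and the lowest library belonged to CT and PF9363. SOCS2 passed in 0 of 6 comparisons with limma, and 0 of 6 had an unadjusted p under 0.05. Its change in OSM over CT was 0.10 (95% interval -0.31 to 0.52, adjusted p = 0.656), so neither a modest rise nor a modest fall is left out by the interval. With the GC and length trend removed, SOCS2 was lower in CBP300 than in CT by a log2 change of -0.74 (adjusted p = 0.00297), against -0.03 as deposited. Its reads numbered 17 to 139 per library, and at 47.3% its longest transcript has the lowest GC content of the 6.

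PIM1 (ENSG00000137193, chromosome 6, 37170203 to 37175426, plus strand, GRCh38) encodes the founding kinase of its family. Its level was 31.6, 37.4 and 27.0 TPM in PF9363 libraries, 36.8, 40.6 and 39.9 TPM in CBP300 libraries, 45.6, 44.0 and 43.5 TPM in OSM libraries, and 18.3, 22.7 and 22.5 TPM in CT libraries. CT libraries were lowest and OSM libraries highest without overlap with any other group, and PF9363 and CBP300 libraries lay between them and overlapped each other. PIM1 rose in OSM over CT by 1.04 (SE 0.12, adjusted p = 0.000301), 0.74 above the median of all genes. It was lower in PF9363 than in OSM by a log2 change of -0.47 (SE 0.12, adjusted p = 0.00959), which is -0.16 relative to the median.

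That lower PIM1 level in PF9363 cells depended on scaling, since the change was -0.11 (adjusted p = 0.336) after median-of-ratios scaling and -0.17 (adjusted p = 0.163) with the GC and length trend removed. Between CBP300 and OSM the change of PIM1 was -0.18 (95% interval -0.45 to 0.09, adjusted p = 0.288). PIM1 was above CT in both inhibitor groups, by 0.57 in PF9363 (adjusted p = 0.00288) and by 0.86 in CBP300 (adjusted p = 0.000159). Between PF9363 and CBP300 it differed by -0.29 (95% interval -0.57 to -0.02, adjusted p = 0.0629), or by -0.41 (adjusted p = 0.0172) without PF9363 replicate 2.

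PIM3 (ENSG00000198355, chromosome 22, 49960513 to 49964080, plus strand, GRCh38) was the more abundant kinase in all 12 libraries. It had 103, 136 and 118 TPM in PF9363 libraries, 110.0, 112 and 116 TPM in CBP300 libraries, 146, 155 and 163 TPM in OSM libraries, and 68.0, 90.6 and 92.0 TPM in CT libraries. Libraries of the 2 inhibitor groups overlapped and fell in the gap between OSM and CT. PIM3 rose in OSM over CT by 0.89 (SE 0.13, adjusted p = 0.000952). It was lower in PF9363 than in OSM by a log2 change of -0.38 (SE 0.13, adjusted p = 0.0337) and lower in CBP300 than in OSM by -0.45 (SE 0.13, adjusted p = 0.0281), and between PF9363 and CBP300 it differed by 0.07 (95% interval -0.22 to 0.36, adjusted p = 0.671).

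The 2 PIM3 calls against OSM changed with processing, whereas the rise with oncostatin M passed under every alternative run. For PF9363 against OSM the call ended without PF9363 replicate 1 or 3 or any 1 OSM library, with changes of -0.42 to -0.28. For CBP300 against OSM it ended without any 1 CBP300 library or OSM replicate 2 or 3, with changes of -0.47 to -0.41. For PF9363 against OSM the change was -0.01 (adjusted p = 0.937) after median-of-ratios scaling, and for CBP300 against OSM it was -0.10 (adjusted p = 0.601) with the GC and length trend removed, while PIM3 transcripts hold 67.1% GC. PIM3 was above CT by 0.51 in PF9363 (adjusted p = 0.00703) and by 0.44 in CBP300 (adjusted p = 0.0106), but for CBP300 over CT the change was -0.05 (adjusted p = 0.735) after median-of-ratios scaling. Reads per library numbered 930 to 4772 for PIM3 and 348 to 2384 for PIM1.

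**Figure D4:**
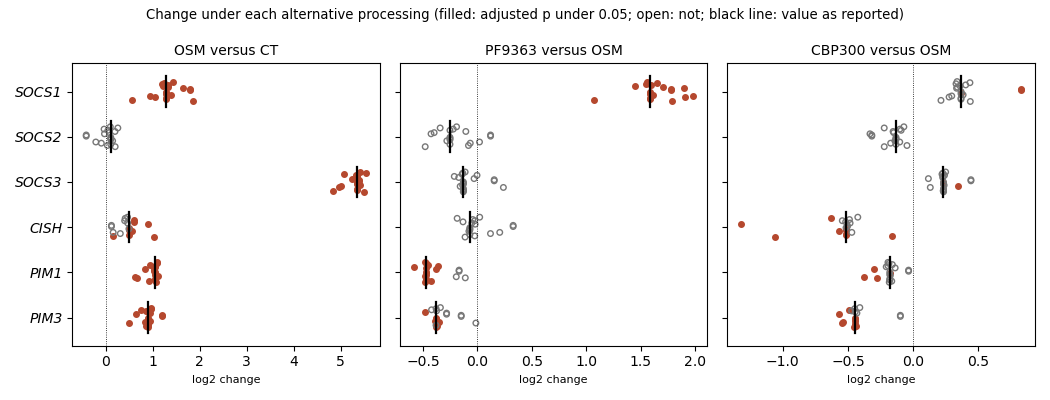
Log2 change of each gene under every alternative processing in OSM versus CT, PF9363 versus OSM and CBP300 versus OSM; filled points have an adjusted p under 0.05, open points do not, and the black line is the value as reported. SOCS1, SOCS3, PIM1 and PIM3 are filled throughout in OSM versus CT, and SOCS1 is filled throughout in PF9363 versus OSM, with values between 1.08 and 1.99.

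Under the alternatives, 12 of the 21 changes that passed kept their direction and their call throughout. These were SOCS1, SOCS3, PIM1 and PIM3 in OSM over CT, SOCS1 in PF9363 over OSM, SOCS1, SOCS3 and PIM1 in PF9363 over CT and in CBP300 over CT, and SOCS1 in PF9363 over CBP300. The range over alternatives was 4.83 to 5.53 for SOCS3, 0.57 to 1.86 for SOCS1, 0.63 to 1.10 for PIM1 and 0.50 to 1.19 for PIM3 in OSM over CT. None of the changes of CISH is in that group.

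PIM2, the remaining PIM kinase, had 37.0, 39.0 and 37.9 TPM in PF9363 libraries, 43.2, 39.0 and 38.6 TPM in CBP300 libraries, 20.2, 21.8 and 20.0 TPM in OSM libraries, and 16.1, 17.7 and 18.9 TPM in CT libraries. As deposited, both inhibitor groups lay at nearly the same level and well above OSM and CT. PIM2 rose in PF9363 over OSM by 0.85 (SE 0.09, adjusted p = 2.36e-05) and in CBP300 over OSM by 0.93 (SE 0.09, adjusted p = 4.8e-05). In OSM over CT its change was 0.23 (SE 0.09, adjusted p = 0.0469), which is -0.08 relative to the median, and that call ended at 0.17 (adjusted p = 0.102) without CT replicate 1, at -0.01 (adjusted p = 0.929) in voom on recovered reads and at -0.15 (adjusted p = 0.256) once libraries were scaled by median of ratios. Between PF9363 and CBP300 it differed by -0.08 (95% interval -0.28 to 0.11, adjusted p = 0.44). After median-of-ratios scaling that difference was 0.38 (adjusted p = 0.0129) and passed, so the likeness of the inhibitor groups depended on scaling. The rises over OSM were 1.13 in PF9363 and 1.13 in CBP300 with the GC and length trend removed.

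SOCS4, SOCS5, SOCS6 and SOCS7, the other members of the SOCS family, passed as higher in OSM over CT. With PIM2 that made 5 of 5 relatives, with a median change of 1.56, against 42.1% of all tested genes. It was 4 of 5 after median-of-ratios scaling, with voom or without CT replicate 1. Over all tested genes 5031 of 16848, 5735 of 16843 and 6033 of 16848 were higher in those settings, in that order. SOCS5, which restrains epidermal growth factor receptor signalling, rose by 2.10 (adjusted p = 0.00397). SOCS4 rose by 1.97 (adjusted p = 0.00387). SOCS7 was the relative besides PIM2 that also rose in CBP300 over OSM, by 0.99 (adjusted p = 0.00727), with means of 25.4 TPM in CBP300 and 12.3 TPM in OSM cells.

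The CT libraries differed among themselves for these relatives. SOCS5 had 22.8, 20.9 and 10.1 TPM in PF9363 libraries, 24.7, 25.0 and 22.2 TPM in CBP300 libraries, 23.8, 19.1 and 20.6 TPM in OSM libraries, and 1.23, 8.38 and 5.49 TPM in CT libraries, with CT replicate 1 and PF9363 replicate 3 the lowest of their groups. With the GC and length trend removed the rises in OSM over CT were 0.95 for SOCS5, 0.57 for SOCS4, 0.54 for SOCS7 and 0.35 for SOCS6, and SOCS6 no longer passed (adjusted p = 0.131). Under that setting the median of the 5 relatives was 0.54, beside -0.04 for all tested genes.

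Upstream of the feedback genes, 13 of 15 receptor chains, kinases and STAT factors passed the filter on low values, and STAT4 and STAT6 did not. In OSM over CT 11 of the 13 were higher and 0 lower, with a median of 1.36, beside 42.1% higher over all tested genes. With the GC and length trend removed these became 9 higher and 0 lower, with a median of 0.47. Of all 16729 genes tested in that setting, 3960 were higher and 4583 lower, with a median of -0.04. The receptor chain OSMR averaged 141 TPM in OSM and 20.7 TPM in CT cells, a change of 2.75 (adjusted p = 3.7e-05). IL6ST, which encodes gp130, changed by 3.10 (adjusted p = 0.00222), by 1.71 once the GC and length trend was removed and by 2.33 without CT replicate 1. That CT library had 6.80 TPM of IL6ST, below 46.9 and 30.6 TPM in the other CT libraries. JAK3, a kinase otherwise tied to lymphocyte receptors, changed by 2.66 (adjusted p = 2.76e-07). STAT3 rose by 1.36 (adjusted p = 0.00013), or by 0.81 once the GC and length trend was removed, and STAT5A, with 21.9 TPM in OSM and 20.7 TPM in CT cells, changed by 0.08 (adjusted p = 0.474).

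Against OSM, PF9363 had 1 higher and 4 lower genes of these 13, beside 11.3% higher and 35.6% lower of all tested genes. CBP300 had 2 higher and 1 lower, beside 13.8% higher and 13.3% lower of all tested genes. The higher genes were STAT3 and LIFR, which encodes the leukaemia inhibitory factor receptor chain. LIFR averaged 13.8 TPM in PF9363, 29.4 TPM in CBP300, 6.13 TPM in OSM and 1.89 TPM in CT cells. STAT5A and STAT5B, the factors best known to drive CISH, moved differently under the inhibitors. STAT5A averaged 16.3 TPM in PF9363, 9.88 TPM in CBP300 and 21.9 TPM in OSM cells, a change of -0.40 in PF9363 (adjusted p = 0.00535) and -1.08 in CBP300 (adjusted p = 3.31e-05). STAT5B averaged 33.9 TPM in PF9363, 68.4 TPM in CBP300 and 67.0 TPM in OSM cells, with a change of -0.97 in PF9363 (adjusted p = 0.00173) and a change of 0.03 in CBP300 (adjusted p = 0.919). STAT3 was higher in CBP300 than in OSM by 0.45 (adjusted p = 0.0371). With the GC and length trend removed, 6 of the 13 were higher and 2 lower in PF9363 against OSM, beside 4635 higher and 4118 lower of 16729 genes. The change of STAT5A in PF9363 was then -0.04 (adjusted p = 0.782).

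Other genes that restrain JAK and STAT proteins, the PTPN phosphatases, the PIAS proteins and SH2B3, were tested for 8 of 9 members, PTPN6 being too low. In OSM over CT 6 were higher and 0 lower, with a median of 0.66, beside 42.1% higher and 15.2% lower of all tested genes. After median-of-ratios scaling 4 were higher and 0 lower, with a median of 0.32. Of all 16848 tested genes, 5031 were then higher and 4694 lower, with a median of 0.0015. PTPN11, which encodes the phosphatase SHP2, averaged 126 TPM in OSM and 32.6 TPM in CT cells, a change of 2.21 (adjusted p = 0.00541), or 1.20 once the GC and length trend was removed. PTPN2, a nuclear STAT phosphatase, was higher in PF9363 than in OSM by 0.59 (adjusted p = 0.00408) and in CBP300 than in OSM by 0.57 (adjusted p = 0.011). In PF9363 against OSM 1 of 8 was higher and 2 lower, beside 11.3% higher and 35.6% lower of all tested genes. In CBP300 against OSM 3 were higher and 0 lower, beside 13.8% higher and 13.3% lower of all tested genes. In OSM over CT 3 were higher and 1 lower, with a median of 0.27, once the GC and length trend was removed. Of 16729 genes in that setting, 3960 were higher and 4583 lower, with a median of -0.04.

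The SOCS box works through elongins B and C, cullin 5 or cullin 2 and a RING protein, and these 6 genes did not move as a group. In OSM over CT 2 were higher and 2 lower, with a median of -0.19, beside 42.1% higher and 15.2% lower of all tested genes. CUL5 changed by 1.57 (adjusted p = 0.00902), by 0.99 without CT replicate 1, and by 0.26 (adjusted p = 0.2) once the GC and length trend was removed. ELOB had 215, 224 and 215 TPM in OSM libraries and 1170.2, 378 and 531 TPM in CT libraries, CT replicate 1 being far above the others. It fell by 1.496 (adjusted p = 0.00776), with a change of -1.04 (adjusted p = 0.0148) without that library and -0.99 (adjusted p = 0.019) once the GC and length trend was removed. Of the 6 genes, 0 were higher and 4 lower under the last setting, beside 3960 higher and 4583 lower of 16729 genes. After median-of-ratios scaling 2 were higher and 4 lower, beside 5031 higher and 4694 lower of 16848 genes. ELOC was higher in PF9363 than in OSM by 0.71 (adjusted p = 0.000299). In that comparison 2 of 6 were higher and 1 lower, beside 11.3% higher and 35.6% lower of all tested genes. In CBP300 against OSM 0 of 6 passed with limma, beside 27.1% of all tested genes, while 2 had an unadjusted p under 0.05.

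Of 10 other genes known as STAT targets, 8 were higher and 0 lower in OSM over CT, with a median of 1.55, beside 42.1% higher over all tested genes. After median-of-ratios scaling 6 were higher and 1 lower, with a median of 1.16, beside 5031 higher and 4694 lower of 16848 genes. Once the GC and length trend was removed 7 were higher and 1 lower, beside 3960 higher and 4583 lower of 16729 genes. BCL6, a transcriptional repressor, averaged 18.4 TPM in PF9363, 37.5 TPM in CBP300, 55.9 TPM in OSM and 4.82 TPM in CT cells. It rose in OSM over CT by 3.34 (adjusted p = 1.14e-05) and fell in PF9363 against OSM by 1.59 (adjusted p = 0.000315). CEBPD, which encodes a transcription factor active in acute phase responses, rose in OSM over CT by 2.69 (adjusted p = 2.06e-07), and its change against OSM was -0.92 in PF9363 (adjusted p = 2.69e-05) and -0.53 in CBP300 (adjusted p = 0.00311).

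In PF9363 against OSM 4 of the 10 were higher and 3 lower, beside 11.3% higher and 35.6% lower of all tested genes. In CBP300 against OSM 2 were higher and 3 lower, beside 13.8% higher and 13.3% lower of all tested genes. IRF1, an interferon response factor, averaged 46.8 TPM in PF9363, 27.4 TPM in CBP300, 27.4 TPM in OSM and 19.3 TPM in CT cells. Like SOCS1 it was higher in PF9363 than in OSM, by 0.75 (adjusted p = 3.15e-05), and its change in CBP300 against OSM was -0.004 (adjusted p = 0.976). JUNB, an AP-1 subunit, was higher than in OSM in both inhibitor groups, by 0.32 in PF9363 (adjusted p = 0.0281) and by 0.60 in CBP300 (adjusted p = 0.00227).

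Transcripts of 12 known PIM kinase substrates were mixed. In OSM over CT 7 were higher and 4 lower, with a median of 0.66, beside 42.1% higher and 15.2% lower of all tested genes. After median-of-ratios scaling 6 were higher and 5 lower, with a median of 0.27, beside 5031 higher and 4694 lower of 16848 genes. Once the GC and length trend was removed, 5 were higher and 3 lower, with a median of 0.15. Of 16729 genes in that setting, 3960 were higher and 4583 lower, with a median of -0.04. MAP3K5, a stress kinase, rose by 1.55 (adjusted p = 0.00361). BAD, a cell death factor that PIM kinases inactivate, averaged 37.9 TPM in PF9363, 77.2 TPM in CBP300, 106 TPM in OSM and 212 TPM in CT cells, and was lower in PF9363 than in OSM by a log2 change of -1.503 (adjusted p = 0.000291). In PF9363 against OSM 1 was higher and 6 lower as deposited, beside 11.3% higher and 35.6% lower of all tested genes. With the GC and length trend removed, 4 were higher and 3 lower, beside 4635 higher and 4118 lower of 16729 genes. In CBP300 against OSM 1 was higher and 1 lower, beside 13.8% higher and 13.3% lower of all tested genes. The lower one was AKT1S1, an inhibitory part of the mTORC1 complex, changing by -0.62 (adjusted p = 0.000309).

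**Figure D5:**
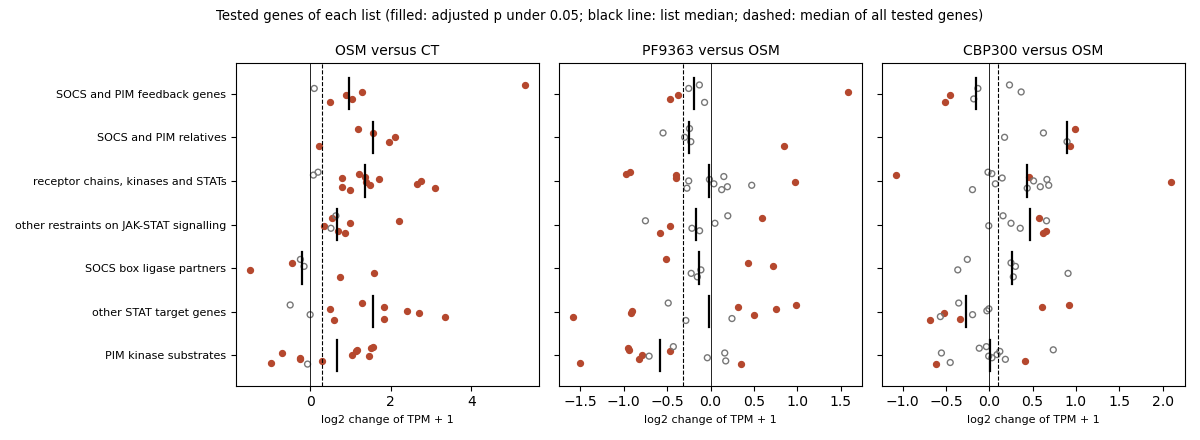
Log2 change of TPM + 1 of every tested gene in the feedback set and 6 related lists, in OSM versus CT, PF9363 versus OSM and CBP300 versus OSM; filled points have an adjusted p under 0.05, the black line is the median of the list and the dashed line that of all tested genes. In OSM versus CT the median is 0.97 for the feedback set, 1.55 for other STAT targets and -0.19 for SOCS box partners.

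Across the 12 libraries, the members fell into different patterns. Pearson's r of log2(TPM + 1) was 0.893 between SOCS3 and PIM1, 0.888 between PIM1 and PIM3, 0.791 between SOCS1 and SOCS3, and 0.000943 between SOCS2 and SOCS3. These are descriptions over libraries that fall into 4 groups and share their scaling, with no test. Of 11555 genes with a mean of at least 5 TPM in some group, SBNO2 (r = 0.998), JAK3 (r = 0.996) and NABP1 (r = 0.990) were most like SOCS3. SBNO2 averaged 104 TPM in PF9363, 123 TPM in CBP300, 111 TPM in OSM and 24.0 TPM in CT cells.

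ARID5A (r = 0.988), SERPINB1 (r = 0.979) and SLC6A8 (r = 0.976) were most like SOCS1. ARID5A, an RNA-binding protein, averaged 35.1 TPM in PF9363, 22.9 TPM in CBP300, 20.2 TPM in OSM and 11.7 TPM in CT cells, the same order of groups as SOCS1. NLGN2, CHST15 and ZNF436 were closest to PIM1, each with r of 0.985 or more, and GRAMD1A, TFAP4 and HAPLN3 to PIM3, with r from 0.947 to 0.971. HAPLN3 had 17.5 TPM in PF9363, 17.7 TPM in CBP300, 29.7 TPM in OSM and 11.6 TPM in CT cells.

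CISH was matched by PLEKHN1 (r = 0.894), SEMA6B (r = 0.877) and LRRC32 (r = 0.871). PLEKHN1 is itself low, with 4.65 TPM in PF9363, 2.08 TPM in CBP300, 5.01 TPM in OSM and 2.74 TPM in CT cells. LRRC32, which presents latent transforming growth factor beta at the cell surface, averaged 171 TPM in PF9363, 52.0 TPM in CBP300, 167 TPM in OSM and 43.6 TPM in CT cells. It thus had the arrangement of CISH, high in PF9363 and OSM and low in CBP300 and CT. For SOCS2 the highest r was 0.826, with NDUFAF1.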

How the data were processed

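The authors deposited 1 table of TPM values per gene and library, 60623 genes by 12 libraries, and 0 value columns were left unused. The submitters' processing notes list RSEM 1.3.3, Bowtie2 and Trimmomatic 0.40 with the GRCh38 build, while annotation release and strand setting are not given in the sources used here. TPM columns of the PF9363 group sum to between 999570 and 999822 and those of the other groups to 1000000, and no correction was made. Whole reads were recovered from steps between low TPM values in all libraries for 16843 of 16848 tested genes (99.97%, tolerance 0.001), and depth was summed from them. Reads cover counting error only.

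The tested genes reached 1 TPM or more in 3 or more libraries. They were analysed as log2(TPM + 1), so changes of low genes are understated. All 12 libraries entered 1 linear model, with a mean for each group, in limma 3.58.1 in R 4.3.3, with a trend of variance on the mean. The 6 comparisons between the 4 groups were adjusted by the Benjamini-Hochberg method over all tested genes, and a change passed at an adjusted p under 0.05. Intervals are at 95%. The steps were tested on simulated data with independent noise and no shift of all genes, unlike these data. For OSM over CT, 18 of 57 genes changed 1.5-fold passed, 41 of 72 changed 2-fold and 64 of 71 changed 4-fold. Many changes of that size would thus not pass, and 5 of 16648 unchanged genes did.

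Alternatives were a pseudocount of 0.1 or 5 TPM, the filter left out or set at 5 TPM, scaling by median of ratios or by quantiles, mitochondrially encoded genes left out, robust moderation, only the 2 compared groups, the replicate number as a block, removal of a spline trend (4 degrees of freedom each) on GC content and length from GENCODE 29 (99.29% of tested genes annotated), that removal with the block, voom on the recovered reads, and omission of each library in turn.

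Named genes are the 6 members, their relatives, STAT3, OSMR and IL6ST, per list and comparison up to 3 members with the largest change that passed without overlap, and per member the 3 genes with the highest r. Not all of them are printed. Members, lists and rules were chosen with earlier results of these data known. IRF1, STAT5A in OSM over CT, JUNB in PF9363, CD14 and MAPKAPK3 were named after their values were seen, and so was the search for the interferon-type element. Promoters came from RefSeq. Plots were drawn with matplotlib 3.10.9, and tables were made with pandas 2.3.3 and numpy 2.4.6 under Python 3.11.15.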

Additional observations from a re-analysis of the deposited data

How the results depend on the processing

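Low read counts limit the precision of CISH, SOCS2 and, with 9 to 17 reads in CT libraries, SOCS1, and the filter at 5 TPM removed CISH and SOCS2, so neither has a value there. The 36 changes gave 672 values under alternatives, of which 568 kept direction and side of the threshold. Of the others, 54 lost the call, 15 gained one with the same sign, and 35 changed sign, whether or not they passed. The cause of these shifts was not tested except where fewer genes or libraries entered by construction. Deviations of same-numbered libraries correlated at -0.48 to 0.23 over the 6 comparisons, and in none were all 3 correlations over 0.1, so the numbers were not taken to pair them. With the replicate block, 1 feedback gene passed in CBP300 against OSM (2 without it), where CISH had an adjusted p of 0.0517, and CISH in PF9363 over CT had an adjusted p of 0.0543.

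Counts of feedback genes that passed moved as follows. PF9363 against OSM had 3, and 1 after median-of-ratios scaling or removal of the GC and length trend, with or without the block. CBP300 against OSM had 2, and 1 with the filter at 5 TPM or the trend removed, with or without the block, 5 with only the 2 compared groups, and 0 to 1 when any 1 library was left out. In the last comparison, 4565 genes of the whole table passed, 10070 with only the 2 groups and 2582 to 3451 with a library left out. PF9363 over CT had 5 feedback genes and 9484 genes in all, against 3 and 6322 with only the 2 groups. PF9363 over CBP300 had 2, and 1 with the filter at 5 TPM and 1 to 2 with a library left out. In that comparison a call was gained in 2 alternatives for SOCS3, in 1 for PIM1 and in 1 for PIM3.

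Sign changes of log2 values, none of which passed as reported except PIM3 in CBP300 over CT, were these. After median-of-ratios scaling, OSM over CT gave -0.10 for SOCS2, PF9363 against OSM gave 0.24 for SOCS3 and 0.12 for CISH, CBP300 over CT gave -0.049 for PIM3, and PF9363 over CBP300 gave 0.11 for SOCS2, 0.11 for SOCS3 and 0.17 for PIM1. Quantile scaling gave -0.21 for SOCS2 in OSM over CT, 0.019 for SOCS2 and 0.20 for CISH in PF9363 against OSM, and 0.12 for SOCS2 and 0.18 for PIM1 in PF9363 over CBP300. Removing the GC and length trend, with or without the replicate block, gave -0.42 for SOCS2 in OSM over CT. It gave 0.12 for SOCS2, 0.15 for SOCS3 and 0.33 for CISH in PF9363 against OSM, and 0.44 for SOCS2 and -0.052 for PIM3 in PF9363 over CBP300. The adjusted p of that SOCS2 value went down to 0.0459, so SOCS2 passed there with the opposite sign. Voom on recovered reads gave -0.03 for SOCS2 in OSM over CT, and removal of mitochondrially encoded genes gave 0.0036 for SOCS2 in CBP300 over CT.

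With a library left out, SOCS2 ranged from -0.039 to 0.25 in OSM over CT, from -0.29 to 0.0019 in PF9363 over CT, from -0.17 to 0.12 in CBP300 over CT and from -0.27 to 0.024 in PF9363 over CBP300. CISH ranged from -0.19 to 0.020 in PF9363 against OSM and from -0.10 to 0.082 in CBP300 over CT, and PIM3 from -0.034 to 0.17 in PF9363 over CBP300.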

Other observations

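SOCS3-DT, a noncoding transcript that starts next to SOCS3 and runs the other way, was looked at after its values were seen. It had 6.05, 5.32 and 7.67 TPM in PF9363 libraries, 2.54, 2.74 and 3.01 TPM in CBP300 libraries, 6.27, 6.52 and 6.55 TPM in OSM libraries, and 0.134, 0.601 and 0.384 TPM in CT libraries. PF9363 and OSM libraries were highest and overlapped, CBP300 libraries lay below them, and CT libraries lay lowest. SOCS3-DT rose in OSM over CT by 2.45 (adjusted p = 4.73e-06), as SOCS3 did. In CBP300 against OSM it changed by -0.99 (adjusted p = 0.00127), where SOCS3 itself changed by 0.23 (adjusted p = 0.396), and it was higher in PF9363 than in CBP300 by 0.96 (adjusted p = 0.000405). With the GC and length trend removed the change in CBP300 against OSM was -0.48 (adjusted p = 0.0773), so that call ended. Its reads numbered 31 to 48 in PF9363, 13 to 63 in CBP300, 36 to 44 in OSM and 1 to 4 in CT libraries.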
